A study of Homo sapiens with 10 samples.

Results

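The genes described here build and run the mitotic spindle, attach chromosomes to it and divide the cell. They were taken from a list of 58 genes, of which 52 were measured by a probe set annotated with exactly 1 gene symbol, among 14232 genes named in this way. BUB1B, CENPN, SKA3, KIF4A, KIF20A and KIF23 were not analysed, because their probe sets carry several symbols. The samples were SH-SY5Y, a human neuroblastoma cell line, in 2 stably transfected lines. One line carried wild-type SOD1, the copper-zinc superoxide dismutase, and the other carried SOD1(G93A), the glycine-to-alanine form known from inherited amyotrophic lateral sclerosis. Both lines were grown with serum and with the drug G418, which keeps the transfected DNA. Exon arrays were run on 5 samples of each line, called here by the sample numbers in their labels: 2, 8, 11, 14 and 17 for wild-type SOD1, and 3, 9, 12, 15 and 18 for SOD1(G93A). The sources used here do not give the promoter of the construct, whether a line was 1 clone or a pool, or whether samples came from separate cultures. A p-value therefore speaks only of the spread among these samples, possibly a technical one. With 1 line each, an effect of the construct cannot be told apart from any other difference between the lines.

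Mitotic genes are transcribed in a wave that peaks in G2 and M phase, so in an asynchronous culture their RNA marks dividing cells. Cyclin B with the kinase CDK1 starts mitosis, kinetochores tie chromosomes to spindle microtubules, and a checkpoint holds the anaphase-promoting complex back until every chromosome is attached. That complex, with CDC20, then marks securin and cyclin B for breakdown, sister chromatids part, and the central spindle guides cytokinesis. Many of these genes share a promoter layout: a cell cycle genes homology region (CHR) close to the start, bound by the MuvB core of the DREAM and B-MYB complexes through LIN54, and CCAAT boxes upstream, bound by NF-Y. In RNA from whole cultures, fewer dividing cells and less of an RNA per dividing cell cannot be told apart.

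The promoter layout is shown for 6 genes that the results turn on. CDCA8, CDC20 and MKI67 fell in the SOD1(G93A) line, CCNB2 and CDK1 varied widely among the SOD1(G93A) samples and did not pass the test, and CENPE fell but held neither motif. Each line gives the 120 bases before a gene's start, 5′ to 3′ on the gene's strand, from RefSeq on GRCh38.p14. Capitals mark the CHR letters TTTGAA or TTCGAA and the CCAAT letters, each searched on both strands (TTCAAA and ATTGG on the other one). The windows are chr1:37692396-37692515 (plus strand) for CDCA8, chr1:43358861-43358980 (plus) for CDC20, chr10:128126424-128126543 (minus) for MKI67, chr15:59105026-59105145 (plus) for CCNB2, chr10:60778358-60778477 (plus, 1 of 2 CDK1 starts in the table) and chr4:103198344-103198463 (minus) for CENPE.
CDCA8: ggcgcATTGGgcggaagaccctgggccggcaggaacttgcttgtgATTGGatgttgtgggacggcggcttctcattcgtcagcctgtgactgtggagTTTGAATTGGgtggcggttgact
CDC20: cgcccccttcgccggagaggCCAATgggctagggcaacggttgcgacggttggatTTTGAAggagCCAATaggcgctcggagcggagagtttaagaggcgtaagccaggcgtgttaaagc
MKI67: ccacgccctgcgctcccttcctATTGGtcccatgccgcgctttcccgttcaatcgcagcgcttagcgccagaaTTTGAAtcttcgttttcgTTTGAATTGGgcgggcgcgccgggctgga
CCNB2: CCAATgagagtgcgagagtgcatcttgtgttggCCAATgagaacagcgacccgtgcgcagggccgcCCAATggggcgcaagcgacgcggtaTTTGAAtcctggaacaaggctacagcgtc
CDK1: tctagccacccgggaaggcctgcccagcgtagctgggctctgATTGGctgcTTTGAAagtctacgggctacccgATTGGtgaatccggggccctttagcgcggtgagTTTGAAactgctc
CENPE: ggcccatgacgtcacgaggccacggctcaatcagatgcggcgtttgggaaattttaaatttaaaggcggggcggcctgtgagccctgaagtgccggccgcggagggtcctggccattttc
In CDCA8 and MKI67 the CHR letters and a CCAAT box on the other strand overlap by 1 base. CCNB2 has 3 CCAAT boxes upstream of a single CHR, the order described for cyclin B genes. In CCNB1, the other measured cyclin B gene, the search described below found CCAAT boxes at -87 and -55 but no CHR match.

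Promoters of the measured genes held these letters in a larger share than promoters at large, a description with no test. Of the 52 genes, 44 had an entry in the RefSeq promoter table, with 57 starts between them, and AURKA, BIRC5, BUB3, CDCA2, CENPM, TPX2, TTK and UBE2C had none. In the 300 bases from 250 before to 50 after the start, 68.4% of the 57 promoters held a CHR match, against 13.5% for genes named on the array and 16.4% of all 35116 promoters in the table. A CCAAT box stood in 70.2% of them, against 34.7% and 34.6%, and both motifs in 52.6%, against 5.40% and 6.38%. CHR matches had a median distance of -26 bases from the start, and CCAAT matches one of -78.5 bases. Among the 12 called genes with a promoter, 9 held a CHR match, and among the 32 others 26 did. A match is a description of the sequence, not a bound site.

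**Figure D1:**
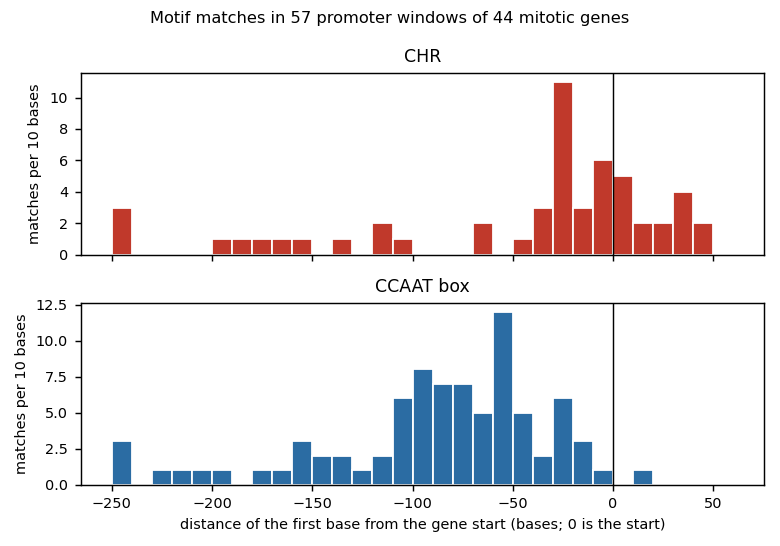
Number of CHR matches (top) and CCAAT matches (bottom) per 10 bases, by distance of the first base of the match from the gene start, in 57 promoter windows of 44 mitotic genes. CHR matches gather near the start (median -26 bases) and CCAAT matches upstream of them (median -78.5 bases).

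Mitotic genes were lower in the SOD1(G93A) line, by small amounts and in almost every gene. Each difference is the mean log2 level in SOD1(G93A) less that in wild-type SOD1, given with limma's moderated standard error (SE). A gene was called where its adjusted p over all 22011 probe sets was at most 0.05. Of 52 genes, 51 had a difference below 0, and the median was -0.24, against 0.00 over all probe sets, of which 49.8% had a difference below 0. The genes were read from the same samples and share a wave of transcription. Counts over them, here and below, are therefore not counts of independent observations. By limma 14 genes (26.9%) fell, where 4.23% of all probe sets fell, as did 5.57% of named genes and 5.50% of probe sets brighter than the median one. None rose by limma, where 3.24% of all probe sets did, and 32 were lower and 0 higher with an unadjusted p under 0.05, against 9.62% and 8.93% of probe sets. The 14 genes were CDC20, CDCA8, MKI67, CENPF, CDCA3, CENPE, CDCA2, BUB1, CDC25C, KIF14, SGO1, AURKB, CENPM and SPC24. No difference reached the labels' threshold of 1 on the log2 scale, and 2 reached 0.5. In 13 genes all 5 SOD1(G93A) samples lay below all 5 wild-type samples, an order found in 6.49% of named genes. These were the called genes other than CDC20 and CDC25C, with UBE2C.

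The number of calls was smaller whichever 1 sample was left out. It was 8, 9, 6, 7 and 7 without wild-type sample 2, 8, 11, 14 or 17. Without SOD1(G93A) sample 3, 9, 12, 15 or 18 it was 7, 5, 10, 12 and 11. The share of all probe sets called lower went from 4.23% with all samples to between 3.31% and 3.83% in these omissions. The calls of BUB1, CENPE, CDCA8, MKI67 and CDCA2 were kept in all 10 omissions, and those of the other 9 genes were lost in at least 1. CENPF lost its call without sample 2, 14, 3 or 9 (adjusted p up to 0.0662), CDCA3 without 8, 11, 17 or 9 (up to 0.0588) and KIF14 without 2, 11, 14, 3 or 9 (up to 0.0575). CDC25C lost it without any 1 sample but 8, 14 and 15, CENPM without any but 3 and 15, and SPC24 without any but 8 and 12. CDC20 lost it without any but 2 and 12, AURKB without any but 15, and SGO1 without any but 18, with adjusted p from limma up to 0.114 over these 6 genes. The median difference ran only from -0.20 to -0.27 over these omissions.

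**Figure D2:**
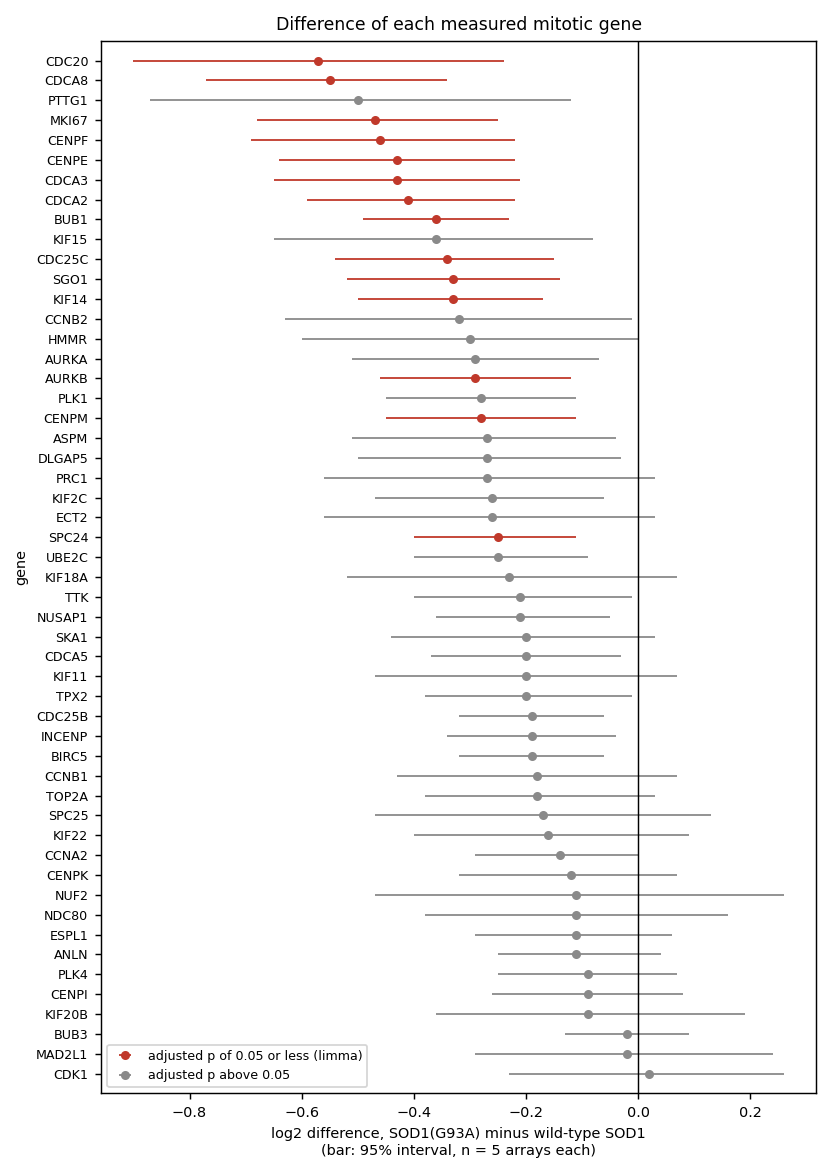
Log2 difference, SOD1(G93A) minus wild-type SOD1, with its 95% interval for each of the 52 measured mitotic genes (5 samples per group), sorted by size. All points but that of CDK1 lie below 0, and the 14 genes at an adjusted p of 0.05 or less are red.

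Counts in the role groups, here and below, stand beside 5.57% of named genes called lower. For an unadjusted p under 0.05 the share lower was 9.62% of all probe sets. A single call in groups this small says little about the group. Of the 6 cyclins, CDC25 phosphatases and CDK1, 5 had a difference below 0, 4 had an unadjusted p under 0.05 and 1, CDC25C, was called. CDC25C, whose product removes the inhibitory phosphates from CDK1, was 7.82, 7.68, 7.94, 7.66 and 8.01 in wild-type samples 2, 8, 11, 14 and 17, and 7.55, 7.48, 7.36, 7.66 and 7.33 in SOD1(G93A) samples 3, 9, 12, 15 and 18. Sample 15 reached the lowest wild-type samples and the other 4 lay below them. The gene fell by 0.34 (SE 0.09, adjusted p = 0.0433 by limma). CDK1, the mitotic kinase itself, was 8.79, 8.74, 8.87, 8.68 and 8.76 in the wild-type samples and 8.63, 8.84, 8.43, 9.03 and 9.00 in the SOD1(G93A) samples, in the same order of samples, which is used throughout. Samples 15 and 18 were thus above and samples 3 and 12 below every wild-type sample. The difference was 0.02 (SE 0.11, 95% interval -0.23 to 0.26), and it turned below 0 when sample 14, 15 or 18 was left out.

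The CDK1 partners CCNB1, CCNB2 and CCNA2 had differences of -0.18, -0.32 and -0.14, none past the threshold (adjusted p from 0.250 to 0.454 by limma). Leaving out SOD1(G93A) sample 12 took CCNB2 to -0.20, and leaving out wild-type sample 11 took CCNB1 to -0.11. CCNB2, a B-type cyclin chosen after its values were seen, stayed between 9.57 and 9.69 in the wild-type samples but was 9.19, 9.31, 8.82, 9.70 and 9.56 in the SOD1(G93A) samples. Its SD was 0.06 with wild-type SOD1 and 0.34 with SOD1(G93A). CDC25B, a second CDC25 phosphatase, differed by -0.19 (adjusted p = 0.0915 by limma).

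Among 7 mitotic kinases and checkpoint proteins, 4 were lower at an unadjusted p under 0.05, and 1 was called lower and 0 higher by limma. BUB1, a checkpoint kinase at the kinetochore, was 8.83, 8.86, 8.98, 8.86 and 8.78 in the wild-type and 8.47, 8.52, 8.42, 8.49 and 8.62 in the SOD1(G93A) samples, with no overlap. It fell by 0.36 (SE 0.06, adjusted p = 0.00256 by limma, the smallest among the measured genes), to 77.9% of the wild-type level. PLK1, the polo kinase of spindle assembly and mitotic exit, was 9.66, 9.87, 9.94, 9.81 and 9.98 against 9.49, 9.46, 9.56, 9.74 and 9.60. Only sample 15 rose above the lowest wild-type sample, and the difference of -0.28 (SE 0.08) stood just outside the threshold (adjusted p = 0.0518 by limma), as CENPM stood just inside it (0.0486). PLK1 passed it in 6 of the alternative settings, with an adjusted p from limma down to 0.0235. CENPM lost its call with no moderation, with array weights and after quantile normalization, beside the single omissions given above. It was also not called without samples 17 and 18 together or with neighbouring sample numbers as a block.

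AURKA, the aurora kinase of centrosomes and spindle poles, was 8.53, 8.52, 8.73, 8.50 and 8.66 in the wild-type and 8.27, 8.21, 8.00, 8.47 and 8.53 in the SOD1(G93A) samples. Sample 18 lay inside the wild-type range and the other 4 lay below it. The difference was -0.29 (SE 0.10, adjusted p = 0.130 by limma). TTK, the kinase that starts the checkpoint, and PLK4, the kinase of centriole duplication, had differences of -0.21 and -0.09, the latter -0.05 without sample 12 and -0.14 without sample 18. BUB3, a checkpoint protein that recruits BUB1 to the kinetochore, had 1 of the 2 smallest differences. It was 10.80, 10.84, 10.84, 10.82 and 10.83 against 10.77, 10.78, 10.72, 10.85 and 10.91, a difference of -0.02 (95% interval -0.13 to 0.09). MAD2L1, which holds CDC20 inactive, also differed by -0.02, with a wider interval of -0.29 to 0.24.

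Among kinetochore genes some subunits of a complex passed the threshold and others did not. Whether subunits differ from each other was not tested. Of 10 measured, CENPE, CENPF, CENPM and SPC24 fell and 0 rose. CENPF, a large protein of the outer kinetochore, was 9.86, 9.49, 9.66, 9.97 and 9.64 in the wild-type and 9.08, 9.09, 9.35, 9.40 and 9.43 in the SOD1(G93A) samples. The ranges did not meet, and the gene fell by 0.46 (SE 0.11, adjusted p = 0.0256 by limma). CENPE, the kinesin that carries chromosomes to the spindle equator, was 5.56, 5.20, 5.25, 5.57 and 5.27 against 4.88, 4.82, 4.86, 5.04 and 5.10. It too showed no overlap, fell by 0.43 (SE 0.09, adjusted p = 0.0177 by limma), and was read by a probe set dimmer than the median one.

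In the NDC80 complex, the 4-part arm that grips microtubules, SPC24 fell by 0.25 (SE 0.06, adjusted p = 0.0392 by limma). Its partners SPC25, NDC80 and NUF2 had differences of -0.17, -0.11 and -0.11, with intervals that include both 0 and the -0.25 of SPC24. Without SOD1(G93A) sample 12 SPC25 was at -0.10 and NDC80 at -0.01. Over the single omissions SPC25 ran from -0.26 to -0.10, NDC80 from -0.18 to -0.01 and NUF2 from -0.24 to 0.02. NUF2 ranged from 8.54 in SOD1(G93A) sample 9 to 9.57 in sample 18, a wider span than its wild-type range of 8.83 to 9.27. CENPM, a subunit of the inner kinetochore network, fell by 0.28 (SE 0.08), while CENPI and CENPK of the same network had differences of -0.09 and -0.12, or -0.05 and -0.04 without sample 12. SKA1, which couples kinetochores to microtubule ends, differed by -0.20 (95% interval -0.44 to 0.03), and by -0.10 without sample 12, its lowest.

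All 4 genes of the chromosomal passenger complex, which corrects faulty attachments and later acts in cytokinesis, had unadjusted p under 0.05, and 2 were called. CDCA8, which encodes the subunit borealin, was 8.24, 8.21, 8.25, 8.32 and 8.47 in the wild-type and 7.92, 7.53, 7.52, 7.86 and 7.89 in the SOD1(G93A) samples. Samples 9 and 12 were lowest, and the highest SOD1(G93A) sample still lay well below the wild-type ones. It fell by 0.55 (SE 0.10, adjusted p = 0.00487 by limma), to 68.2% of the wild-type level. AURKB, the kinase of the complex, was 10.11, 10.17, 10.21, 10.18 and 10.29 against 9.93, 9.69, 9.95, 10.10 and 9.85, so sample 15 came within 0.01 of the lowest wild-type sample. It fell by 0.29 (SE 0.08, adjusted p = 0.0444 by limma). The scaffold INCENP and survivin, encoded by BIRC5, each differed by -0.19 (adjusted p = 0.144 and 0.0957 by limma).

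Of the 4 genes that hold and release sister chromatids, 3 were lower at an unadjusted p under 0.05 and 1, SGO1, was called. Shugoshin, its product, protects centromeric cohesion. SGO1 was 8.12, 8.05, 8.05, 8.06 and 8.22 in the wild-type and 7.75, 7.59, 7.62, 7.85 and 8.03 in the SOD1(G93A) samples, with sample 18 just under the wild-type range. It fell by 0.33 (SE 0.09, adjusted p = 0.0433 by limma). PTTG1, which encodes securin, had one of the larger differences, -0.50, but also one of the larger errors (SE 0.17, adjusted p = 0.123 by limma). Wild-type sample 2 stood at 11.91, and the other wild-type samples between 10.96 and 11.43. PTTG1 has near-identical copies, and its probes may read them too. Sororin, encoded by CDCA5, differed by -0.20 and the separase gene ESPL1 by -0.11, with a range of -0.17 to -0.07 over the single omissions.

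CDC20, which activates the anaphase-promoting complex, had the largest difference of the 52 genes with all samples in. This was not so without wild-type sample 11 (-0.46, with CDCA8 at -0.57) or SOD1(G93A) sample 3 (-0.56, with CDCA8 at -0.60). Without SOD1(G93A) sample 18, too, CDCA8 had a larger difference than CDC20. CDC20 was 9.95, 10.27, 10.83, 10.46 and 10.45 in the wild-type and 9.78, 9.59, 10.02, 9.98 and 9.75 in the SOD1(G93A) samples. Wild-type sample 2 overlapped with samples 12 and 15, while the other 4 wild-type samples lay above all SOD1(G93A) samples. CDC20 fell by 0.57 (SE 0.15, adjusted p = 0.0426 by limma). UBE2C, the ubiquitin-conjugating enzyme of the same complex, showed no overlap between the groups but missed the threshold, with a difference of -0.25 (SE 0.07, adjusted p = 0.0643 by limma). It passed under the mean-variance trend and with dim probe sets left out.

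All 7 kinesin motors had a difference below 0, 3 had an unadjusted p under 0.05 and 1 was called. KIF14, a kinesin of the central spindle, was 7.68, 7.57, 7.77, 7.74 and 7.55 against 7.27, 7.25, 7.19, 7.44 and 7.49, with no overlap. It fell by 0.33 (SE 0.08, adjusted p = 0.0214 by limma). KIF15 and KIF11, which push spindle poles apart, had differences of -0.36 and -0.20. The microtubule depolymerase KIF2C differed by -0.26, KIF18A, which damps chromosome movements, by -0.23, the chromosome-binding KIF22 by -0.16 and KIF20B, a kinesin of cytokinesis, by -0.09. Leaving out 1 sample took KIF11 to -0.13 (sample 12), KIF18A to -0.13 and KIF22 to -0.07 (both sample 9), and KIF20B to between -0.17 and -0.02. KIF15 was called without sample 18 (adjusted p = 0.0482 by limma), as was the spindle gene DLGAP5 (0.0496).

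None of the 5 spindle microtubule genes was called by limma, and all 5 had an unadjusted p under 0.05. They were TPX2, the activator of AURKA (-0.20), the microtubule bundler NUSAP1 (-0.21), the spindle pole gene ASPM (-0.27), DLGAP5, which stabilises kinetochore fibres (-0.27), and HMMR (-0.30). In this group the mean was 8.44, 8.44 and 8.47 in SOD1(G93A) samples 3, 9 and 12, and 8.76 and 8.84 in samples 15 and 18, against 8.72 to 8.93 in wild-type samples. The last 2 thus lay inside the wild-type range. Of the 3 cytokinesis genes, none was called by limma and none had an unadjusted p under 0.05. The contractile ring scaffold ANLN differed by -0.11 (-0.07 without wild-type sample 11), the RhoA exchange factor ECT2 by -0.26 and the midzone bundler PRC1 by -0.27, with intervals that reach just above 0.

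The proliferation marker MKI67, whose product coats mitotic chromosomes, was 9.69, 9.27, 9.24, 9.65 and 9.40 in the wild-type and 8.85, 8.97, 8.97, 9.08 and 9.06 in the SOD1(G93A) samples. Here the wild-type samples were the more scattered (SD 0.21 against 0.09), and still no SOD1(G93A) sample reached them. MKI67 fell by 0.47 (SE 0.10, adjusted p = 0.0140 by limma), to 72.4% of the wild-type level. CDCA2, which brings a phosphatase to chromosomes at mitotic exit, was 7.87, 7.49, 7.56, 7.73 and 7.50 against 7.26, 7.08, 7.20, 7.25 and 7.33. It fell by 0.41 (SE 0.08, adjusted p = 0.0130 by limma), again with no overlap.

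CDCA3, a trigger of mitotic entry, was 8.48, 8.61, 8.63, 8.46 and 8.67 against 8.32, 7.99, 8.15, 8.36 and 7.87. Sample 18 was its lowest sample, unlike in most of these genes, and the gene fell by 0.43 (SE 0.10, adjusted p = 0.0224 by limma). TOP2A, the topoisomerase that untangles sister chromatids, was chosen after its values were seen. It was 9.65 to 9.80 in the wild-type samples and 9.29, 9.53, 9.38, 9.70 and 9.77 in the SOD1(G93A) samples, a difference of -0.18 (95% interval -0.38 to 0.03), or -0.11 without sample 3. The last 2 samples lay inside the wild-type range and the first 3 below it.

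**Figure D3:**
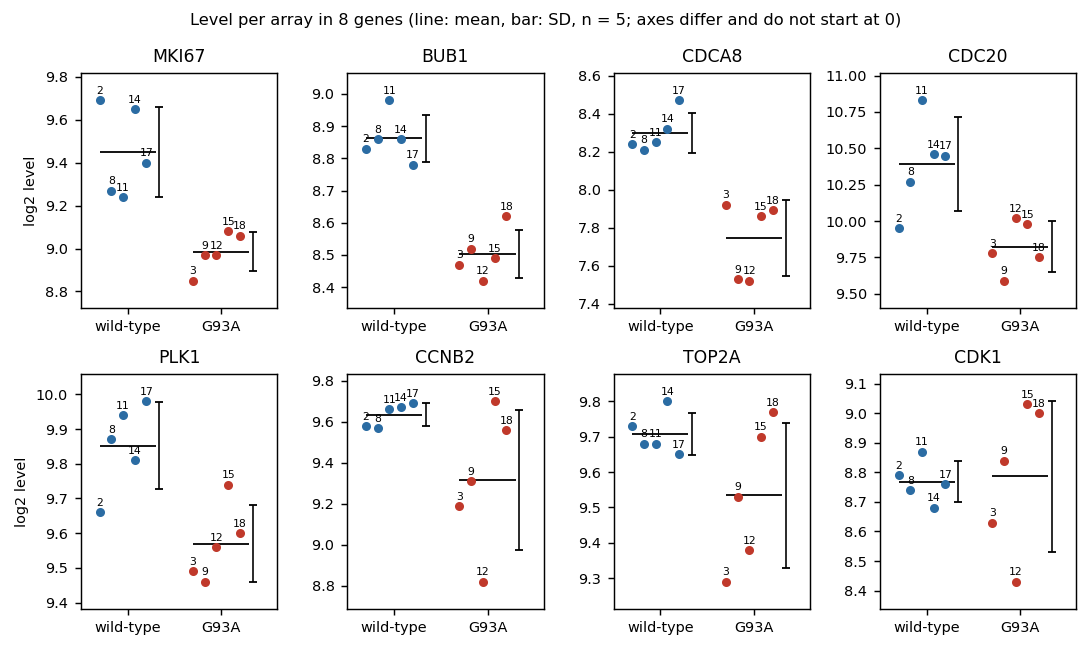
Log2 level of 8 mitotic genes in each sample (points, labelled by sample number), with the group mean (line) and SD (bar, n = 5); the vertical axes differ and do not start at 0. MKI67, BUB1 and CDCA8 show no overlap between the groups, while in CCNB2, TOP2A and CDK1 SOD1(G93A) samples 15 and 18 stand apart from samples 3 and 12.

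The SOD1(G93A) samples were not alike. The mean over the 52 genes was 8.70, 8.57, 8.70, 8.69 and 8.69 in wild-type samples 2, 8, 11, 14 and 17, or 8.67 ± 0.05 (SD, n = 5). It was 8.36, 8.31 and 8.33 in SOD1(G93A) samples 3, 9 and 12, and 8.54 and 8.57 in samples 15 and 18, or 8.42 ± 0.13 (SD, n = 5). Samples 15 and 18 were thus between the other SOD1(G93A) samples and the main body of wild-type ones, and sample 18 was level with wild-type sample 8. The difference of the group means was -0.25, with no test since the genes were chosen with earlier results known, and it stayed between -0.22 and -0.28 without any 1 sample.

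Counted gene by gene, sample 3 lay below all 5 wild-type samples in 47 of 52 genes (90.4%), and samples 9 and 12 in 44 each (84.6%). In samples 15 and 18 this was so in 19 (36.5%) and 24 (46.2%). Over all probe sets the same position was taken by 19.3%, 26.9%, 24.6%, 19.5% and 20.5% in samples 3, 9, 12, 15 and 18. In 44 genes the highest SOD1(G93A) sample was 15 or 18, and in 48 the lowest was 3, 9 or 12. The share of all probe sets with such ranks was not counted. The SD was larger among SOD1(G93A) than among wild-type samples in 38 of 52 genes, against 53.5% of all probe sets and 59.1% of those brighter than the median one.

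Array brightness is given beside these means. The upper quartile of all probe sets was 8.05 and 8.09 in samples 15 and 18, 8.01, 7.96 and 7.97 in samples 3, 9 and 12, and 7.97 in wild-type sample 8, the lowest of its group. In wild-type samples 2, 11, 14 and 17 it was 8.01, 8.05, 8.00 and 8.05. Among the SOD1(G93A) samples those with the low means were thus the dimmer arrays. At an upper quartile of 8.01, SOD1(G93A) sample 3 and wild-type sample 2 had means of 8.36 and 8.70. At 7.97, SOD1(G93A) sample 12 and wild-type sample 8 had 8.33 and 8.57. At 8.05, SOD1(G93A) sample 15 had 8.54 and wild-type samples 11 and 17 had 8.70 and 8.69. The part of array brightness in the means was not tested. With the arrays quantile normalized again, the mean of the mitotic genes was 8.36, 8.36 and 8.38 in samples 3, 9 and 12, 8.52 and 8.50 in samples 15 and 18, and 8.61 to 8.70 in the wild-type samples. The 2 groups then no longer met, and samples 15 and 18 still stood above the other 3. In this setting 12 genes were called lower, beside 4.53% of all probe sets.

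**Figure D4:**
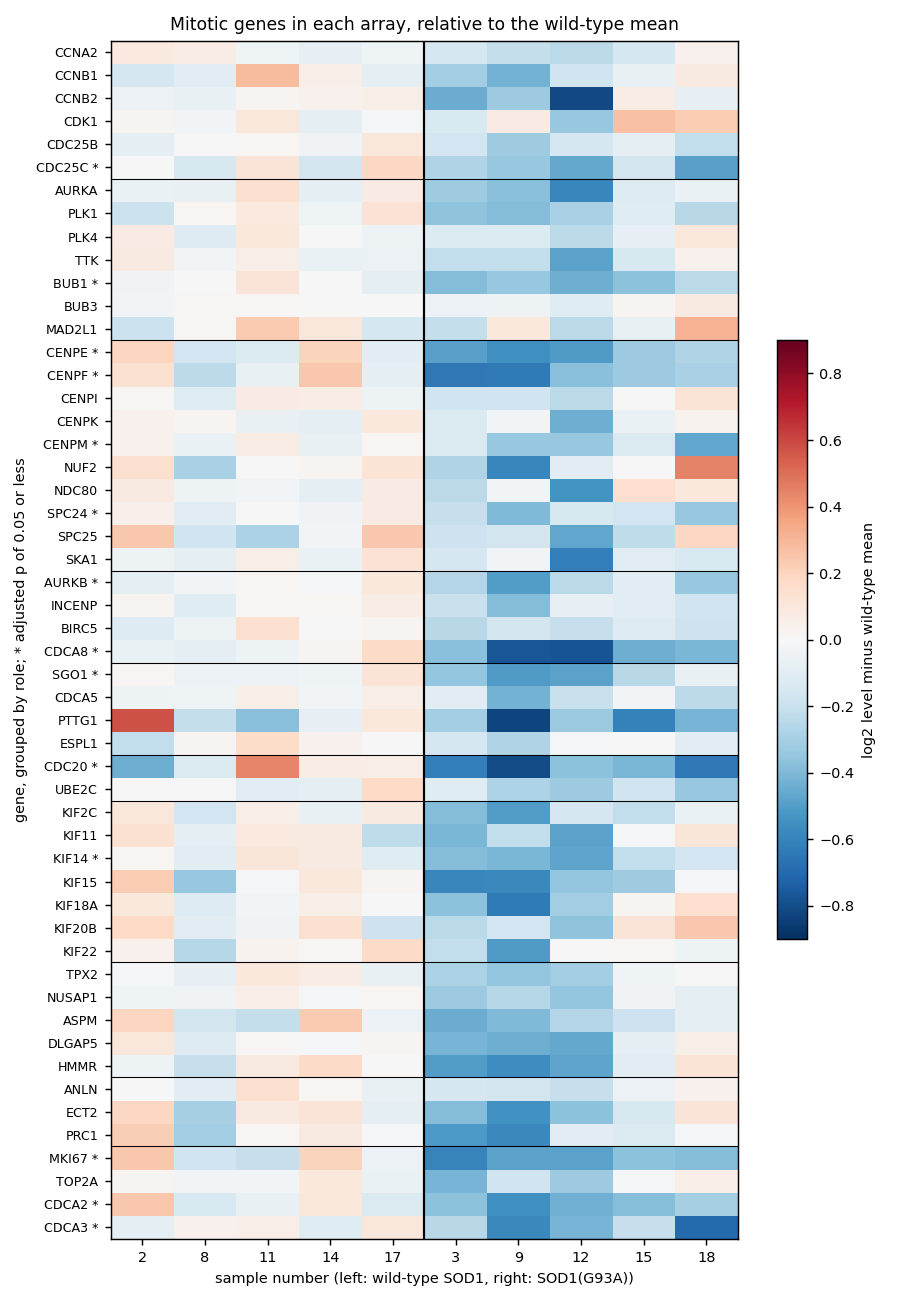
Log2 level of each of the 52 genes in each of the 10 samples minus that gene's wild-type mean (blue is lower, red is higher), with genes grouped by role and called genes starred. The columns of SOD1(G93A) samples 3, 9 and 12 are blue almost throughout, while those of samples 15 and 18 are pale or red in many genes. In the called genes both of these columns are blue to pale, as the call itself favours genes that are low in every SOD1(G93A) sample.

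Other genes of mitosis, from a list of 104, had a median difference of -0.09. By limma 10 of the 74 measured (13.5%) fell and 0 rose, beside 5.57% of named genes called lower. With no adjustment 25 were lower and 2 higher at p under 0.05, beside 9.62% and 8.93% of probe sets. Counts of 0 or 1 in the smaller lists below lie near the share of all named genes. The 10 were 6 without wild-type sample 2 or 11. Spindle and cytokinesis genes held most of the calls, 6 of 12 measured, with FAM83D, a spindle targeting factor, falling by 0.46 (SE 0.07), DEPDC1 by 0.45 (SE 0.07) and PRR11 by 0.36 (SE 0.07). Among 11 entry kinases and partners, PIMREG fell by 0.45 (SE 0.10) and the phosphatase gene CDC25A by 0.27 (SE 0.06).

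Of 17 further kinetochore genes only CENPA, the centromeric histone, was called, falling by 0.77 (SE 0.06, adjusted p = 1.02e-05 by limma). At an unadjusted p under 0.05, 5 of the 17 were lower and 0 higher, beside 9.62% and 8.93% of probe sets. CENPA lies on chromosome 2 between SH3YL1 and ACYP2, a stretch picked in earlier results of these data, in which 101 of 201 named genes were called lower and 2 higher; none of the 58 listed genes lies there. In condensin and cohesin, whose rings shape and hold chromosomes, 1 of 12 was called, NCAPD3, which fell by 0.22 (SE 0.06). Here 2 were lower and 0 higher at an unadjusted p under 0.05, and the median difference was -0.01. None of 12 genes of the anaphase-promoting complex and its regulators was called by limma (1 lower and 1 higher at an unadjusted p under 0.05), with a median of -0.02.

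Genes that control mitotic transcription gave 0 calls by limma among 10 measured, with 3 lower and 1 higher at an unadjusted p under 0.05. MYBL2, which encodes B-MYB, had a difference of -0.19 (SE 0.05) and no overlap between the groups (adjusted p = 0.0594 by limma). FOXM1, the forkhead factor of G2 and M genes, differed by -0.15 (SE 0.05, adjusted p = 0.139), and LIN54 by -0.12 (SE 0.05, adjusted p = 0.215). These 3 were chosen after their values were seen. Of the 10 genes, 6 had a difference below 0 and 4 above it, among the latter E2F5 at 0.24 (SE 0.10, adjusted p = 0.225 by limma). Among 12 G1 regulators and CDK inhibitors, the cyclin CCND1 fell by 0.23 (SE 0.05, adjusted p = 0.0130 by limma). CDKN1B, which encodes the inhibitor p27 and was also chosen after its value was seen, differed by 0.31 (SE 0.11, adjusted p = 0.124). Another CDK inhibitor gene, CDKN2A, went the other way, by -0.57 (SE 0.17, adjusted p = 0.0691 by limma). Of the 12 genes, 8 had a difference below 0 and 4 above it.

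DNA replication genes, the nearest group in the cell cycle, had a median difference of -0.08 over 40 measured, with 3 (7.5%) called lower and 0 higher by limma, a share near the 5.57% of named genes. RRM2, a subunit of ribonucleotide reductase, fell by 0.43 (SE 0.07), TK1, a thymidine kinase, by 0.27 (SE 0.07) and MCM2, part of the replicative helicase, by 0.26 (SE 0.07). With no adjustment, 12 were lower and 1 higher at p under 0.05, beside 9.62% and 8.93% of probe sets. Of the 40 genes, 31 had a difference below 0, against 49.8% of all probe sets. In 6 all SOD1(G93A) samples lay below all wild-type samples, an order found in 6.49% of named genes. RRM2 lies in the same stretch of chromosome 2 as CENPA. Only 1 call was left without any 1 of wild-type samples 2, 8, 11, 14 and 17 or SOD1(G93A) samples 9, 15 and 18. These genes averaged 8.74 ± 0.05 in wild-type samples against 8.65 ± 0.10 in SOD1(G93A) samples (SD, n = 5), from 8.52 in sample 9 to 8.78 in sample 18, so the groups overlapped. Whether the mitotic and replication genes differ in their shift was not tested.

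**Figure D5:**
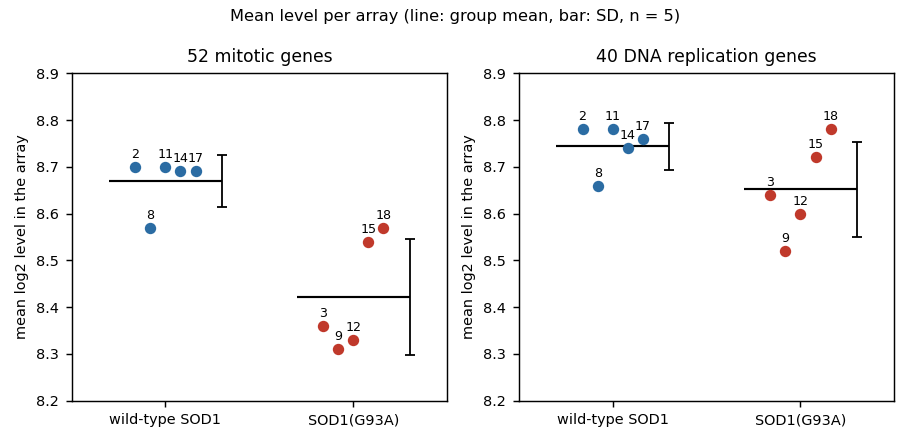
Mean log2 level per sample of the 52 mitotic genes (left) and of 40 DNA replication genes (right), with sample numbers, group mean (line) and SD (bar, n = 5). On the left SOD1(G93A) samples 3, 9 and 12 lie between 8.31 and 8.36 and samples 15 and 18 at 8.54 and 8.57; on the right the groups overlap.

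The median log2 level per array ranged from 6.26 to 6.34, and pairs of arrays correlated at 0.990 to 0.994 within and 0.986 to 0.990 between groups. Of the 52 probe sets, 49 were brighter than the median one and 0 were below the lower quartile. Markers of noradrenergic neuroblastoma, the labelled cell type, averaged 9.13 to 9.35 in wild-type and 9.38 to 9.61 in SOD1(G93A) samples over 8 measured genes, of which 3 rose (DDC, CHGA, CHGB) and 2 fell (GATA2, GATA3) by limma. Mesenchymal or stromal markers averaged 7.08 to 7.26 and 7.40 to 7.54 over 13 genes, of which 5 rose and 1 fell by limma and 1 was below the lower quartile of probe sets. Schwann and glial markers averaged 4.59 to 4.72 and 4.83 to 4.97 over 5 genes, with S100B called higher. Of these 5, 0 were brighter than the median probe set and 1 was below the lower quartile of 3.87. S100B had a mean of 3.69 with wild-type SOD1, under that quartile, and 4.42 with SOD1(G93A). SOX10 and GFAP differed by -0.04 and -0.03, and the other 3 genes were above 0. Immune and endothelial markers were near the floor at 3.16 to 3.25 and 3.16 to 3.22 over 8 genes, 5 of them below the lower quartile. The ranges of the first 3 lists did not overlap between the lines, although their genes went both ways, as with COL3A1 at 2.33 and SNAI2 at -1.03. Their part in the result was not tested.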

How the data were processed

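The deposited values are log2 intensities of 22011 probe sets on 10 arrays. The authors' tools were RMA, named in the submitters' processing notes, and oneChannelGUI 1.6.5, named in the labels. The sources used here give no genome build and no filter. Because RMA makes arrays alike in distribution, a change common to all genes would be hidden, and the number of arrays limits the precision. The table has no detection calls.

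Groups came from the sample titles. Of the probe sets, 14432 had 1 gene symbol, 2408 several and 5171 none in the platform annotation. Each gene was read from its brightest single-symbol probe set by mean over all arrays; of the measured genes only BIRC5 had more than 1. limma 3.58.1 in R 4.3.3 (lmFit, eBayes, 2-sided) was run on all probe sets without a filter, with Benjamini-Hochberg adjustment and a threshold of 0.05, the rate the labels state; the script was tested on simulated data. All adjusted p-values in the text come from this limma fit unless another setting is named.

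The members and lists were chosen with earlier results of these data known. Values per sample were set to be given for the 12 largest called differences, for MKI67, CDK1, AURKA and PLK1, and for the 2 smallest differences; of other lists, up to 3 called genes each. Alternatives were another prior or no moderation, array weights, centring, quantile normalization, dim probe sets left out, the labels' fold threshold, averaged probe sets, omitted samples and, added after seeing the data, neighbouring sample numbers as a block.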

Additional observations from a re-analysis of the deposited data

Results flagged for a closer look

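In SKA1, SOD1(G93A) sample 12 stood apart from its group at 5.73, where the nearest other SOD1(G93A) sample was at 6.20, and the difference of -0.20 was -0.10 without it. In the mean over the 52 mitotic genes, wild-type sample 8 stood apart at 8.57, the nearest other wild-type sample being at 8.69. These were 2 of 106 groups of 5 samples looked at, and chance flags about 1 in 20.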

How the results depend on the processing

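The 14 mitotic genes called lower became 8 with no moderation of the variance and 8 without samples 17 and 18 together. Of all probe sets 3.89% and 3.32% were called lower in these settings, against 4.23% in the fit used above. With the labels' fold threshold added, 0 mitotic genes, 0 of the 10 other mitotic genes and 0 of the 3 replication genes were left. That threshold left 192 of the 1643 called probe sets. Without any 1 sample the counts ran from 5 to 12 for the mitotic genes, from 6 to 9 for the other mitotic genes and from 1 to 3 for the replication genes. In these omissions 3.31% to 3.83% of all probe sets were called lower. The 3 replication calls were 5 with the dimmer probe sets left out and 1 without samples 17 and 18. Under the mean-variance trend, robust prior, array weights, median centring, quantile normalization, dim probe sets left out and averaged probe sets the mitotic count stayed between 11 and 16. The share of tested probe sets called lower then ran from 4.2% to 6.63%, the latter with dim probe sets left out. No mitotic gene was called higher under any of the 21 settings, and the difference of the group means stayed between -0.22 and -0.28. Signs turned only in 4 genes with small differences, none called: CDK1 was -0.00443 without wild-type sample 14, -0.04 without SOD1(G93A) sample 15 or 18, and -0.04 without samples 17 and 18; BUB3 was 0.000897 after quantile normalization and 0.00394 without SOD1(G93A) sample 12; MAD2L1 was 0.04 or 0.00312 without wild-type sample 11 or 14 and 0.02 or 0.03 without SOD1(G93A) sample 3 or 12; NUF2 was 0.02 without SOD1(G93A) sample 9. Over all single omissions CDK1 ran from -0.04 to 0.11, MAD2L1 from -0.11 to 0.04 and NUF2 from -0.24 to 0.02. The cause was not tested. The labels name no pairs, and the groups share no sample number. In an alternative chosen after seeing the data, with each wild-type sample and the next sample number as a replicate block, 8 mitotic, 4 other mitotic and 1 replication genes were called lower. There 3.18% of all probe sets were called lower. Deviations of such neighbours correlated at -0.03 to 0.14 over all probe sets, and 2 of 5 wild-type samples correlated best with their neighbour.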

Other observations

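SOD1(G93A) sample 18 was the highest of its group in 30 of the 52 genes but the lowest in 4: CDC25C (7.33), CENPM (8.13), UBE2C (8.26) and CDCA3 (7.87). In these 4 genes it lay below every wild-type sample, whereas in NUF2 it was the highest of all 10 samples at 9.57. SOD1(G93A) samples 9 and 12 were each the lowest of their group in 21 genes, with different genes in each. Sample 9 was lowest in CDC20 (9.59), PLK1 (9.46) and AURKB (9.69), and sample 12 in CDK1 (8.43), CCNB2 (8.82) and NDC80 (7.03). Ranks of this kind were not counted over all probe sets.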
